A study of Mus musculus with 4 samples.

Results

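Pparg and 8 further genes of lipid uptake, transport and export were followed across 4 arrays of sorted mouse bone marrow cells. The 9 genes are the nuclear receptors Pparg and Nr1h3, the fatty acid carriers Fabp4 and Fabp5, the lipases Lipg and Lpl, the uptake receptor Cd36 and the lipid exporters Abca1 and Abcg1. They are 9 of 22180 genes on the array, and 13 of its 41345 probe sets carry one of their symbols and no other. The members were selected on measured values of these arrays: Pparg, Fabp4 and Lipg were already seen to differ between the double knockout and wild-type arrays, and Fabp4 also between the Fancd2 knockout and wild-type arrays. Their differences between these arrays are therefore given as a description.

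The 4 arrays are Affymetrix Mouse Gene 2.0 ST arrays, which read transcripts along their whole length, and each holds RNA of 1 genotype. The labels give the genotypes as wild type, written WT below, and as knockouts of Fancd2 (Fancd2KO), of Foxo3a (Foxo3aKO) and of both genes (DKO). All mice were 2 months old, and no treatment was given in the labels. Cells were sorted from Ficoll-separated marrow for c-Kit and Sca-1 and against lineage antigens and CD34, which gates for haematopoietic stem cells. The sample titles carry the word SLAM, and how it relates to this gate was not checked. The sources used here give neither the alleles nor the sex of the mice nor how many were pooled for an array. No genotype has a replicate, so each difference describes a pair of arrays and has no replicate check, no test and no error of its own.

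PPAR gamma, the product of Pparg, is a nuclear receptor that is activated by fatty acids and their derivatives. It binds DNA as a pair with a retinoid X receptor and is best known for driving fat cell formation and, in macrophages, lipid uptake. Among its textbook targets are Fabp4, Cd36 and Lpl. LXR alpha, the product of Nr1h3, senses oxidised cholesterol and turns on the cholesterol exporters Abca1 and Abcg1. In blood, these genes are best known from monocytes, macrophages and, for several of them, endothelial cells.

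The arrays had nearly the same overall signal, with array medians of 5.27 to 5.34 log2 and pairwise correlations over all probe sets of 0.965 to 0.969. The median of all gene values, 5.51 log2, served as a floor under which a signal was called dim. All 13 measured stem cell markers lay at or above the floor on every array. So did all 12 measured neutrophil markers, although the gate removes lineage-positive cells. For Fancd2, the WT array gave 6.56 log2, Fancd2KO 6.08, Foxo3aKO 6.67 and DKO 5.84. For Foxo3 the values were 6.62, 6.72, 6.64 and 6.51 log2 in the same order, so the arrays labelled as lacking it differed from WT by only 0.02 and -0.10 log2. The deleted exons are not given in the labels, so neither signal checks the genotypes. As a yardstick for single arrays, 728 genes with 2 probe sets that reached the floor on at least 1 array were used. The pair reads the same RNA, so its disagreement holds none of the variation between mice or sorts, and it may not hold for dim signals. Both probe sets of such a gene disagreed about a difference from WT with an SD of 0.49 log2 for Fancd2KO, 0.47 for Foxo3aKO and 0.52 for DKO, and 95% of these genes disagreed by less than 0.92, 0.94 and 0.96.

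All 9 members reached the floor on at least 1 array, and 12041 genes in all did so. Abca1, Abcg1, Fabp5 and Lpl lay at or above it on all 4 arrays. Fabp4 did so on the Fancd2KO and DKO arrays. Pparg, Lipg, Cd36 and Nr1h3 reached it on the DKO array only, so these 4 genes could not have entered without a higher DKO signal.

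**Figure D1:**
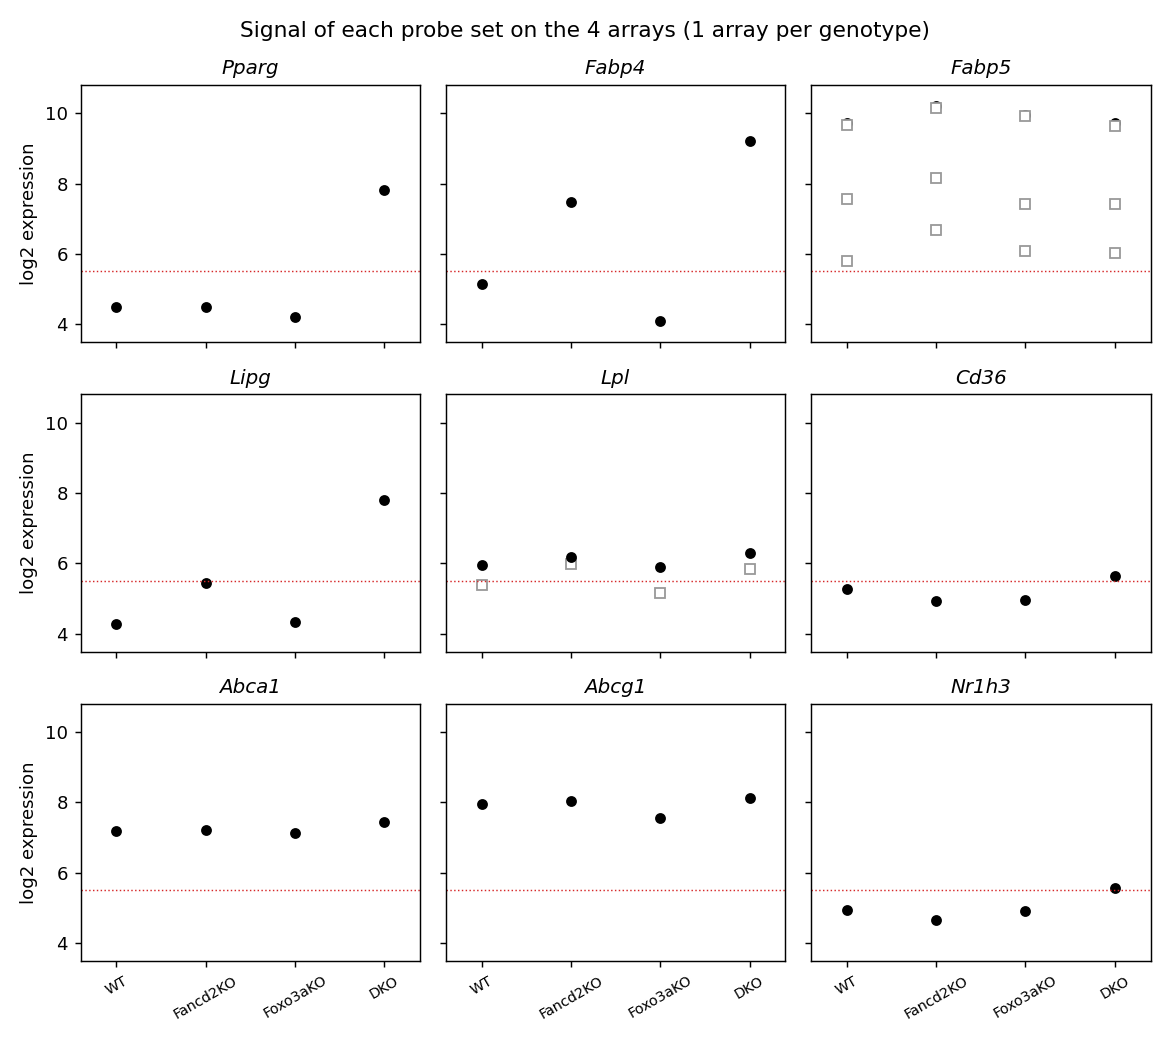
Log2 expression (y axis) of the 9 genes on the WT, Fancd2KO, Foxo3aKO and DKO arrays (x axis, 1 array each); filled circles are the probe set that stands for the gene, open squares its other probe sets, and the dotted red line is the floor of 5.51 log2. Pparg, Fabp4 and Lipg stand far higher in DKO than in WT, Fabp4 is also high in Fancd2KO, and the other genes span less than 1 log2 unit.

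Pparg (probe set 17461942) was dim on 3 arrays and well above the floor on the fourth. The WT array gave 4.50 log2, Fancd2KO 4.50, Foxo3aKO 4.23 and DKO 7.83. The WT and both single knockout arrays did not differ beyond the probe set disagreement, whereas the DKO array stood 3.33 log2 above WT. It stood 3.33 log2 above Fancd2KO and 3.60, or 12.1-fold, above Foxo3aKO. Because the other arrays were dim, the fold is not exact. With every dim signal set to the floor, DKO was 2.32 log2 higher than each other array, a 4.99-fold difference. In DKO minus WT, Pparg ranked 8th from the top of 12041 genes. In Fancd2KO minus WT it lay in mid-range, at -0.00 log2, a sign that turns with normalisation, and in Foxo3aKO minus WT at -0.27.

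The RefSeq table of assembly GRCm38.p6 lists 3 transcription starts for Pparg, and the array gives 1 value for all of them, so which start the DKO signal comes from was not measured. The stretches before the first and second start are shown, which of the 3 are the only ones with a nuclear receptor half-site. They are printed with each half-site, AGGTCA on either strand, in capitals.
Pparg, chr6:115360894-115361143, plus strand: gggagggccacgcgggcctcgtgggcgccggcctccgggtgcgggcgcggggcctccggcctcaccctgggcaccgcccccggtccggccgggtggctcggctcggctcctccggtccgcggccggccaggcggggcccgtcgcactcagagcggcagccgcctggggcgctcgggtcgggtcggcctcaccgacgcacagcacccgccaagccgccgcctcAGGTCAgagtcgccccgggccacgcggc
Pparg, chr6:115362099-115362348, plus strand: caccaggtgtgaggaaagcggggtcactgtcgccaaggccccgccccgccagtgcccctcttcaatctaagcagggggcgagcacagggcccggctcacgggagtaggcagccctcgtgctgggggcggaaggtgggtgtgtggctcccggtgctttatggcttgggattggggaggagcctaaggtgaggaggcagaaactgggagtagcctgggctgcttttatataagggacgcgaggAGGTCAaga
The half-site begins 28 bases before the first start and 9 bases before the second. The third start, whose 250 bases are at chr6:115421816-115422065, has none in that window. Of the 32851 promoter windows of 250 bases in the table, 14.0% hold at least 1 such half-site. The windows differ in base composition, with a G and C content of 82.4% at the first Pparg start, 63.6% at the second and 40.8% at the third, against a median of 52.4% over all windows. A match is a description of letters and not a measured binding site.

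Nr1h3 (probe set 17388177), which encodes LXR alpha, was dim on 3 arrays as well. The WT array gave 4.93 log2, Fancd2KO 4.66, Foxo3aKO 4.91 and DKO 5.57. The DKO array was 0.64 log2 above WT, which exceeds the disagreement SD of 0.52 but not the 95% limit of 0.96. DKO exceeded Fancd2KO by 0.92 and Foxo3aKO by 0.67. Its DKO signal lay just over the floor, and only 0.06 log2 of the difference from WT remained once dim signals were set to it.

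Fabp4 (probe set 17404091) encodes a small cytosolic carrier that ferries fatty acids within adipocytes, macrophages and endothelial cells. It had the widest range of the 9 genes over the 4 arrays, as the WT array gave 5.16 log2, Fancd2KO 7.47, Foxo3aKO 4.10 and DKO 9.22. Each step of this order, from Foxo3aKO through WT and Fancd2KO to DKO, exceeded the probe set disagreement SD. Fancd2KO stood 2.31 log2, or 4.95-fold, above WT, and DKO 4.06 log2, or 16.7-fold, above WT. With dim signals set to the floor these differences were 1.96 and 3.71 log2. Between the single knockouts, Fancd2KO exceeded Foxo3aKO by 3.37 log2, and DKO exceeded Foxo3aKO by 5.12. The Foxo3aKO signal was dim, and with the floor these differences were 1.96 and 3.71 log2. The Foxo3aKO array was lower than WT by a log2 difference of -1.06, but both signals were dim and nothing of this difference remained with the floor.

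Fabp5 encodes the epidermal carrier of the same family and has 4 probe sets, all at or above the floor on every array. The probe set that stands for it (17548238) read 9.71 log2 on the WT array, 10.21 on Fancd2KO, 9.95 on Foxo3aKO and 9.71 on DKO. Probe set 17548717 read 9.66, 10.15, 9.91 and 9.63 on the same arrays. Probe set 17404073 read 7.55, 8.17, 7.42 and 7.42, and probe set 17396056 read 5.81, 6.68, 6.09 and 6.04. All 4 probe sets were highest in Fancd2KO, by 0.49, 0.49, 0.62 and 0.86 log2 over WT. These differences are close to the disagreement SD of 0.49 and within the 95% limit of 0.92. In DKO the 4 probe sets differed from WT by -0.00, -0.02, -0.13 and 0.22 log2, so Fabp5 did not share the DKO difference of Fabp4. Whether these probe sets share probes with each other or with similar copies of the gene was not tested.

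Lipg (probe set 17355443) encodes endothelial lipase, which releases fatty acids from lipoproteins, mainly from the phospholipids of HDL. The WT array gave 4.28 log2, Fancd2KO 5.46, Foxo3aKO 4.34 and DKO 7.81. WT and Foxo3aKO did not differ beyond the disagreement, Fancd2KO lay between, and DKO was highest. DKO exceeded WT by 3.53 log2, or 11.6-fold, and Fancd2KO by 2.36. With dim signals set to the floor, the difference from WT was 2.31 log2, or 4.95-fold. Fancd2KO exceeded WT by 1.17 log2, but both signals were dim, so with the floor they did not differ.

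Lpl encodes lipoprotein lipase, which hydrolyses the triglycerides of circulating lipoproteins. Its probe set 17509775 read 5.97 log2 on the WT array, 6.17 on Fancd2KO, 5.91 on Foxo3aKO and 6.30 on DKO. Its second probe set, 17501633, read 5.38, 5.97, 5.16 and 5.84 on the same arrays. No step between neighbouring levels of the first probe set exceeded the disagreement SD. DKO minus WT was 0.33 and 0.46 log2 in the 2 probe sets, and Fancd2KO minus WT was 0.21 and 0.59. The probe sets disagreed on whether DKO or Fancd2KO was highest.

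Cd36 (probe set 17445715) encodes a scavenger receptor for fatty acids and oxidised lipoproteins. Its signal was dim on 3 arrays, at 5.29 log2 for WT, 4.94 for Fancd2KO and 4.95 for Foxo3aKO, and reached 5.65 for DKO. DKO was 0.37 log2 above WT, within the probe set disagreement, and 0.71 and 0.70 above Fancd2KO and Foxo3aKO. Set to the floor, dim signals left 0.15 log2 of each difference.

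Abca1 (probe set 17425301) encodes the transporter that loads cholesterol and phospholipid onto lipid-poor apolipoproteins. The WT array gave 7.18 log2, Fancd2KO 7.22, Foxo3aKO 7.13 and DKO 7.44. Abcg1 (probe set 17335770), whose product passes cholesterol on to HDL, gave 7.96, 8.04, 7.57 and 8.11 log2. Both exporters were highest in DKO and lowest in Foxo3aKO. DKO exceeded WT by 0.26 log2 for Abca1 and 0.15 for Abcg1, and no step between neighbouring levels exceeded the disagreement SD. Abcg1 was higher by 0.54 log2 in DKO than in Foxo3aKO, against a disagreement SD of 0.50.

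The windows before the starts of Abca1 and Cd36 are shown because both genes are textbook targets of these receptors and neither was 2-fold apart in any pair of arrays. Direct repeats of the half-site were searched on both strands. DR1 is AGGTCANAGGTCA, the repeat typical of PPAR binding, and DR4 is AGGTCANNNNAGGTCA, the repeat typical of LXR binding. Capitals mark the best DR4 match of Abca1 and the best DR1 match of Cd36.
Abca1, chr4:53159896-53160145, minus strand: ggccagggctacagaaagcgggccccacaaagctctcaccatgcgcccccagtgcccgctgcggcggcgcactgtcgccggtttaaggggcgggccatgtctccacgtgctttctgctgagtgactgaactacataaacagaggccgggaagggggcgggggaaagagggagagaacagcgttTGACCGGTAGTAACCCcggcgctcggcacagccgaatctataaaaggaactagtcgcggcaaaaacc
Cd36, chr5:17835897-17836146, minus strand: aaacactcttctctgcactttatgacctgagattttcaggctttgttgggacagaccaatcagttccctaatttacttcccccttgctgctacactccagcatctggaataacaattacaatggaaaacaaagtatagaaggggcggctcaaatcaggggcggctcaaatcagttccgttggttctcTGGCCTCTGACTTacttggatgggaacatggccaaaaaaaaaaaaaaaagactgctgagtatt
The Abca1 match lies on the strand opposite to the one printed, begins 67 bases before the start and has 9 of the 12 fixed letters of DR4, as have the best matches of 18.5% of all windows, or better ones. The Cd36 match also lies on the opposite strand, begins 63 bases before the start and has 10 of the 12 fixed letters of DR1, a level that 3.24% of windows reach. Exact matches are rare, in 0.0335% of windows for DR1 and 0.0152% for DR4. The Cd36 window also holds an exact half-site 228 bases before the start. The Nr1h3 windows of its 2 starts hold no exact half-site.

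Counted at a 2-fold threshold, a log2 difference of 1, the members fell as follows. In DKO minus WT, 3 of 9 members were at least 2-fold higher (Fabp4, Lipg and Pparg) and 0 lower, while 1.37% of the 12041 genes were higher and 1.72% lower. In Fancd2KO minus WT, 2 of 9 were higher (Fabp4 and Lipg) and 0 lower, while 1.68% of all genes were higher and 1.35% lower. In Foxo3aKO minus WT, 0 of 9 were higher and 1 was lower (Fabp4), while 1.81% of all genes were higher and 1.3% lower, a balance that turned to 1.53% and 1.75% with each array centred on its median. Since the members were chosen with these values known, nothing is read from the counts. The median member difference was 0.37 log2 in DKO, 0.08 in Fancd2KO and -0.06 in Foxo3aKO, beside medians of all genes of -0.03, -0.01 and -0.04. These comparisons share the WT array.

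**Figure D2:**
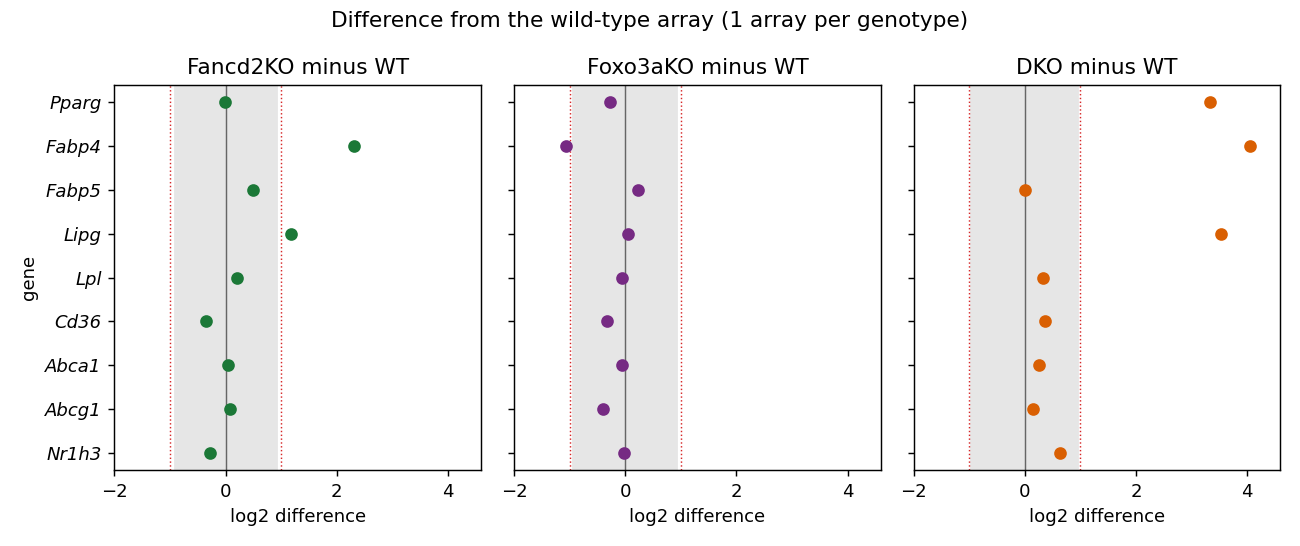
Log2 difference from WT (x axis) of the 9 genes (y axis) for the Fancd2KO, Foxo3aKO and DKO arrays, 1 array per genotype and the probe set that stands for each gene; dotted red lines mark 2-fold, and the grey band holds 95% of the probe set disagreements (0.92, 0.94 and 0.96). Fabp4 and Lipg lie outside the band in Fancd2KO, Fabp4 at -1.06 in Foxo3aKO, and Fabp4, Lipg and Pparg in DKO.

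Against the single knockouts, the same 3 genes were at least 2-fold higher in DKO. In DKO minus Fancd2KO, 3 of 9 members were higher and 0 lower, beside 1.5% and 1.51% of all genes. In DKO minus Foxo3aKO, 3 of 9 were higher and 0 lower, beside 1.18% and 2.18%. In Fancd2KO minus Foxo3aKO, a pair of arrays set side by side after the values were seen, 2 of 9 were higher (Fabp4 and Lipg) and 0 lower, beside 0.756% and 2.04%, or 1.04% and 1.73% with centred arrays. By the probe set that stands for each gene, 8 of the 9 members were highest in DKO and 5 lowest in Foxo3aKO. The same shares over all genes were not counted, so nothing is read from these counts. Pparg, Lipg, Cd36 and Nr1h3 reached the floor on the DKO array only, so their highest place there was fixed by that filter. Fabp5 was not highest in DKO, and the second probe set of Lpl was highest in Fancd2KO.

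If the differences of both single knockouts simply added on the log2 scale, DKO would equal Fancd2KO plus Foxo3aKO minus WT. Pparg was expected at 4.22 log2 and measured at 7.83, which is 3.60 above the sum. Fabp4 was expected at 6.41 and measured at 9.22, or 2.81 above. Lipg was expected at 5.51 and measured at 7.81, or 2.30 above. With dim signals set to the floor, Pparg lay 2.32, Fabp4 1.75 and Lipg 2.31 above the sum. Cd36 was 1.05 and Nr1h3 0.94 above the sum, both within the 95% limit of probe set disagreement for this quantity, 1.37, and shrank to 0.15 and 0.06 with the floor. Abcg1 differed by 0.47, Abca1 by 0.28, Lpl by 0.18 and Fabp5 by -0.73, the last against an SD of 0.72. At least 2-fold above the sum were 4 of 9 members (3 with the floor) and below it 0, beside 3.99% and 4.43% of all genes. This quantity combines 4 single arrays and carries the error of each.

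**Figure D3:**
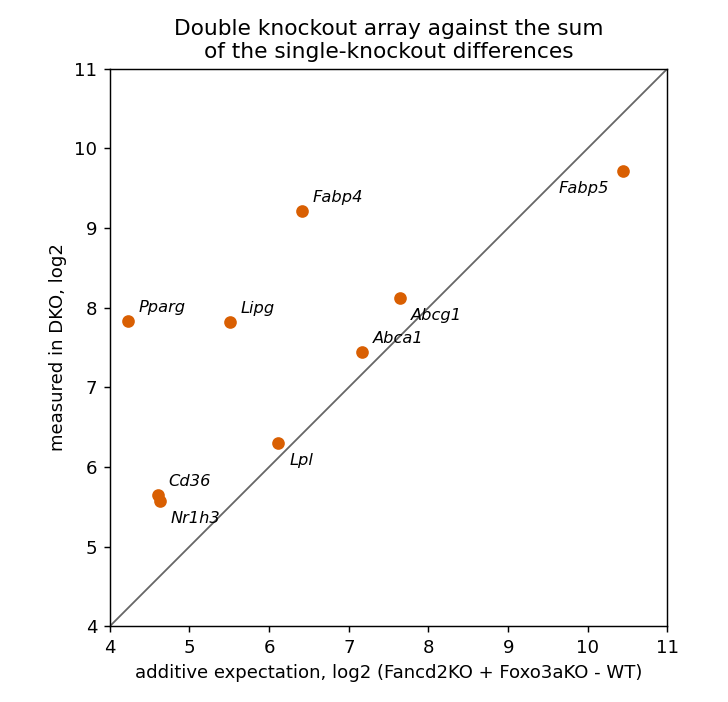
Measured DKO signal (y axis, log2) against the additive expectation from the single knockouts (x axis, log2) for the 9 genes, 1 array per genotype; the line marks equality. Pparg, Fabp4 and Lipg lie 3.60, 2.81 and 2.30 log2 above the line and Fabp5 lies 0.73 below it.

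Other genes of the pathway were taken from lists that leave out the 9 members. Of 19 PPAR target genes at or above the floor, 0 were 2-fold apart in DKO minus WT, with 11 higher and 8 lower and a median of 0.06 log2. Over all 12041 genes, 1.37% were at least 2-fold higher in DKO and 1.72% lower, so a count of 0 among 19 says little. These shares also stand beside the DKO counts of the lipid gene lists below. The largest differences were those of Angptl4 (-0.61, but -0.08 with dim signals set to the floor), a secreted inhibitor of lipoprotein lipase, Tgm2 (0.57), Adipor2 (-0.39), an adiponectin receptor, and the peroxisomal oxidation enzyme Ehhadh (0.36). With dim genes included, 0 of 32 were 2-fold apart. In Fancd2KO the list median was 0.03 and 1 gene was 2-fold higher, the lipid droplet gene Hilpda (1.17). In Foxo3aKO the median was -0.11 with 0 genes 2-fold apart. Beside the 3.33 log2 difference of Pparg in DKO, no target on this list was thus 2-fold apart. Fabp4, which was, is a member chosen with its difference known, so no contrast with the list is drawn.

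Pparg's relatives and cofactors differed little. Of 19 genes of the PPAR family, its partners and coregulators at or above the floor, 0 were 2-fold apart in any knockout, with medians of -0.00, 0.01 and -0.06 log2 in Fancd2KO, Foxo3aKO and DKO. In DKO minus WT the largest differences were those of the myeloid and fat cell factors Cebpa (0.49) and Cebpb (0.47), the coactivator Crebbp (-0.44) and the retinoid X receptor Rxrb (0.40). Ppard read 6.28, 6.35, 6.23 and 6.24 log2 on the WT, Fancd2KO, Foxo3aKO and DKO arrays, and the partner Rxra read 6.28, 6.15, 6.02 and 6.14. Ppara was dim on all 4 arrays.

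LXR targets were followed in the same way, and the 2 lists were not tested against each other. Of 10 LXR targets at or above the floor, 3 were at least 2-fold higher than WT and 0 lower, with 7 higher in all and a median of 0.23 log2. Pltp, the phospholipid transfer protein, read 5.77 log2 on the WT array, 5.83 on Fancd2KO, 6.10 on Foxo3aKO and 8.38 on DKO, a difference from WT of 2.61. Apoc2, the activator of lipoprotein lipase, stood at 6.38, 6.07, 6.62 and 8.45, a difference of 2.08. Apoe, the apolipoprotein of remnant particles, stood at 6.63, 6.74, 6.46 and 7.68, a difference of 1.05. All 3 were above the floor on every array, so their differences do not depend on it. In Fancd2KO and Foxo3aKO 0 of 10 were 2-fold apart, with medians of -0.04 in both. The exporters Abca1 and Abcg1, which are LXR targets too, differed from WT by 0.26 and 0.15 in DKO.

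Genes of uptake and export beyond the 9 members showed few differences. Of 19 fatty acid and lipoprotein uptake genes at or above the floor, 1 was 2-fold higher in DKO, the endocytic receptor Lrp1, which read 5.92 log2 on the WT array, 6.36 on Fancd2KO, 6.69 on Foxo3aKO and 6.96 on DKO (1.04 above WT). Angptl4 (-0.61, or -0.08 with the floor), the fatty acid transporter Slc27a4 (0.34) and the scavenger receptor and chemokine Cxcl16 (0.30) followed. With dim genes included, the scavenger receptor gene Msr1 was also at least 2-fold lower. Fancd2KO had 1 gene higher, the very low density lipoprotein receptor Vldlr (1.08), and Foxo3aKO had 1, Slc27a4 (1.28). A further list held 11 ABC transporters of lipids, not all of them exporters. Of these, 0 were 2-fold apart in DKO, led by the peroxisomal Abcd2 (-0.59) and by Abcb1a (0.52), Abca7 (-0.29) and Abca3 (0.28). Abcd2 was lower by -1.30 log2 in Fancd2KO.

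**Figure D4:**
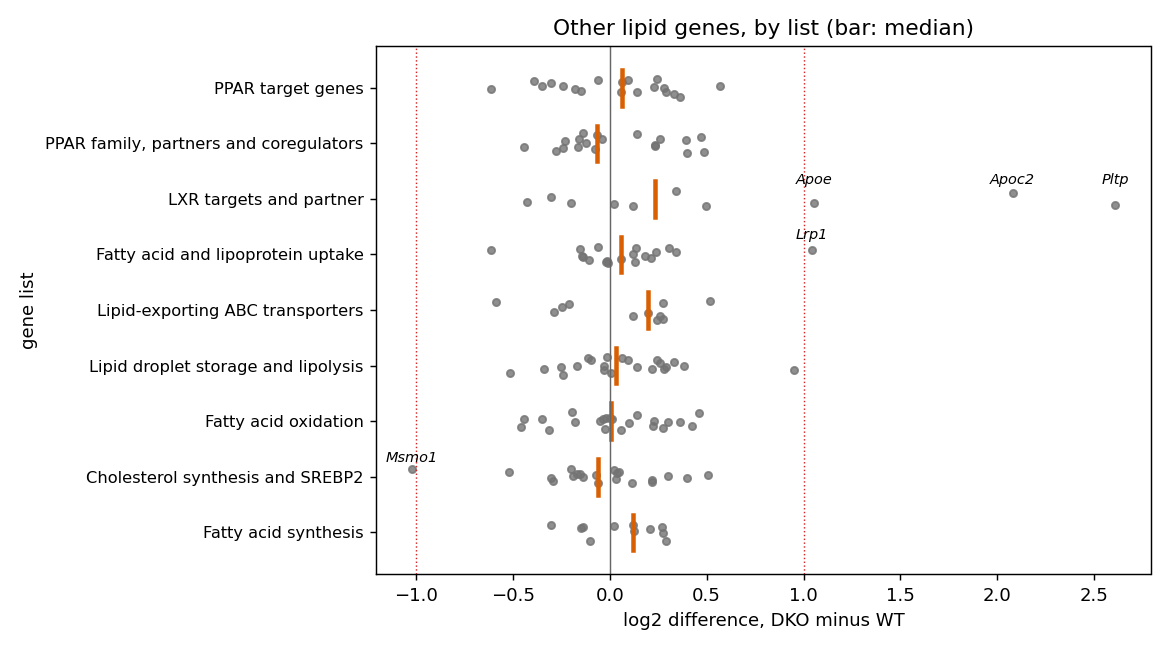
DKO minus WT in log2 units (x axis) for genes at or above the floor in 9 lists of lipid genes (y axis), without the 9 members; each dot is a gene, the orange bar the list median, and dotted red lines mark 2-fold. Pltp (2.61), Apoc2 (2.08), Apoe (1.05) and Lrp1 (1.04) lie beyond 2-fold higher and Msmo1 (-1.02) beyond 2-fold lower.

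The genes whose pattern was most like that of Pparg were found by the Euclidean distance between the 3 differences from WT, over 4 arrays and 12041 genes. The 8 nearest were Fcrl5 (0.29 log2), Ace (0.68), Pltp (0.94), Tph1 (0.96), Cd300e (1.01), Bcl2a1a (1.05), Lilra5 (1.06) and Clec4b1 (1.09), where the median distance of all genes was 3.39. Fcrl5, an Fc receptor-like gene, read 4.30 log2 on the WT array, 4.08 on Fancd2KO, 3.94 on Foxo3aKO and 7.45 on DKO. Ace, which encodes angiotensin-converting enzyme, stood at 5.09, 4.77, 4.77 and 7.82. Both were thus dim on all but the DKO array, as Pparg was. Among the members, Lipg was the nearest, at rank 13 with a distance of 1.24. Nr1h3 ranked 308 and Fabp4 151, at a distance of 2.55, because Fabp4 was also high in Fancd2KO. With 3 differences that share the WT array, likeness says little beyond a high DKO signal.

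**Figure D5:**
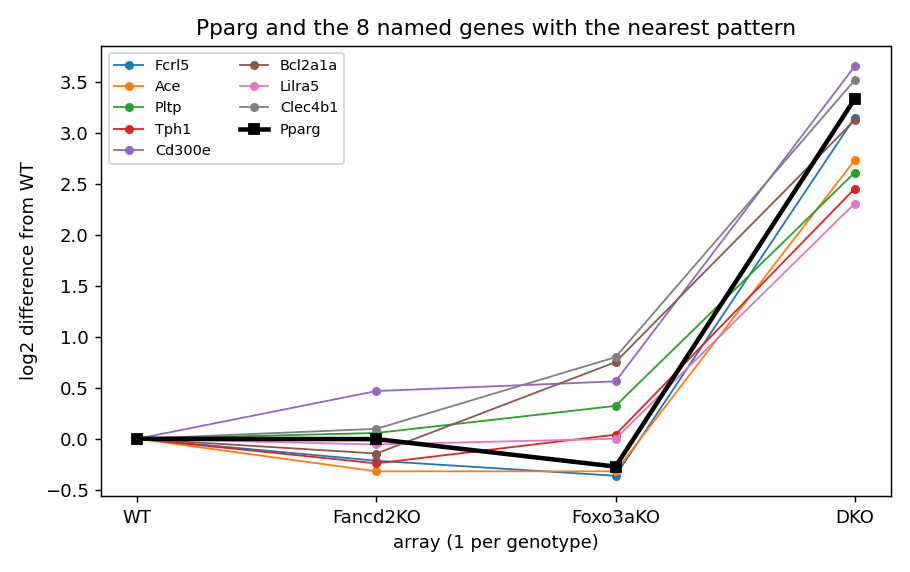
Log2 difference from WT (y axis) on each array (x axis, 1 per genotype; WT is 0 by definition) for Pparg, in black, and the 8 nearest named genes; lines only join the values of a gene. All 9 lie between -0.36 and 0.80 in the single knockouts and between 2.30 and 3.65 in DKO.

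Markers of other cells also differed between these arrays. Marker lists were used without the floor. Over all 22180 genes, 0.987% were at least 2-fold higher in DKO than in WT and 1.18% lower. In Foxo3aKO these shares were 1.27% and 0.902%, and in Fancd2KO 1.15% and 1.01%. They stand beside all counts of markers below. Of 19 monocyte and macrophage markers, 9 were at least 2-fold higher in DKO than in WT and 1 lower (F13a1, -1.21). In all, 14 were higher and 5 lower, with a median of 0.82 log2. The highest were Clec4a3 (4.01), Ms4a6d (2.17) and Csf1r (1.93). Besides F13a1, Ccr2 (-0.81), Lyz2 (-0.25), Itgam (-0.23) and Fcgr3 (-0.05) were lower. The summed signal of the 19 markers, on a log2 scale, was 12.97 on the WT array, 12.61 on Fancd2KO, 13.49 on Foxo3aKO and 13.56 on DKO. Lyz2, the brightest marker, weighs most in this sum, and it read 12.01, 11.67, 12.31 and 11.77 log2. In Foxo3aKO 5 of the 19 markers were at least 2-fold higher than WT and 0 lower, with a median of 0.56, and Csf1r differed by 0.33. In Fancd2KO 13 of 19 were lower, with a median of -0.36. Of 12 markers of non-classical monocytes, a list that holds Cd36, 6 were at least 2-fold higher in DKO and 0 lower, with a median of 0.93, led by Fcgr4 (4.08), Cd300e (3.65) and Ace (2.73). At any size, 11 of the 12 were higher in DKO and 1 was lower (Spn, -0.26). In Fancd2KO, 9 of the 12 were lower than WT, with a median of -0.32, and in Foxo3aKO 8 were higher, with a median of 0.45. The summed signal was 11.04, 11.81, 11.49 and 12.26 on the WT, Fancd2KO, Foxo3aKO and DKO arrays. In Fancd2KO the sum ran against the list median, and Nr4a1 was the 1 marker at least 2-fold higher there (2.81). The part of these cells in the differences of Pparg, Fabp4, Lipg and the LXR targets was not tested. In RNA of a sorted population, more or fewer cells of a type and more or less RNA per cell cannot be told apart.

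Of 13 markers of tissue and marrow macrophages, 10 were higher in DKO than in WT, 2 of them at least 2-fold, and 3 were lower. The median was 0.31 log2, and only 8 of the 13 reached the floor on any array. Their leading genes were Hmox1 (1.24) and the complement genes C1qb (1.17) and C1qa (0.97), while Slc40a1 (-0.39), Spic (-0.36) and Timd4 (-0.18) were lower. The defining genes Cd5l, Cd163, Timd4 and Siglec1 were dim on all 4 arrays. Alveolar macrophages, a type known for high Pparg and Fabp4, had a median of 0.03 over 8 markers, 4 higher and 4 lower. The highest differences, those of Car4 (0.92), Marco (0.50) and Atp6v0d2 (0.37), belong to genes dim on every array. The 3 markers that reached the floor on any array were Siglecf (-0.58), Chil3 (-0.33) and Lpcat1 (0.09). For fat cells, 8 of 10 markers were dim on all 4 arrays, among them Adipoq, Lep, Plin1 and Cidec. The list median was -0.01 in DKO, with 5 markers higher and 5 lower. The highest were Pck1 (0.30), Aqp7 (0.10) and Lipe (0.10), and the lowest were Retn (-0.84), Lep (-0.25) and Adipoq (-0.18). All of these but Lipe were dim on every array. The summed signal of the fat cell markers was 8.21, 8.22, 8.28 and 8.16 on the WT, Fancd2KO, Foxo3aKO and DKO arrays.

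Endothelial cells also express Fabp4, Lipg, Lpl and Cd36. Of 15 endothelial markers, 10 were higher in DKO, 0 of them 2-fold, and 1 was at least 2-fold lower (Tek, -1.25, also a stem cell marker), and the list median was 0.28 log2. Emcn (-0.87) and Egfl7 (-0.67) were also lower. The highest differences, those of Kdr (0.92), Cdh5 (0.72) and Flt1 (0.48), belong to genes that were dim on all 4 arrays, as was Gpihbp1, which anchors lipoprotein lipase to capillaries. The summed endothelial signal was 10.56 on the WT array, 10.51 on Fancd2KO, 10.17 on Foxo3aKO and 10.43 on DKO. It was thus highest in WT and lowest in Foxo3aKO. Only 7 of the 15 markers reached the floor on any array, and of these Tek and Esam are also on the stem cell list. The part of endothelial cells in the Fabp4 and Lipg differences was not tested. Marrow stroma had a median of 0.35 in Fancd2KO, with 10 of 11 markers higher, and 0.11 in DKO, where 7 were higher and 4 lower. The largest DKO difference was that of Pdgfrb (-1.46, or -0.75 with dim signals set to the floor), the 1 stroma marker at least 2-fold lower, and Col1a2 differed by -0.46. The highest were Cxcl12 (0.59), Col1a1 (0.55) and Lepr (0.45), the last dim on all 4 arrays.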

How the data were processed

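Gene expression was measured on 4 arrays, 1 per genotype, and all 4 deposited columns were used. The deposited values are log2 expression values per probe set, made by the authors. The submitters' processing notes name Affymetrix Expression Console, and the log2 scale was read from the range of the values. Version, summarisation, normalisation and filters are not given in the sources used here. Rank by rank, the arrays differed from their mean by at most 0.0889 log2, so the values were used as deposited.

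The platform annotation named the probe sets: 23521 had 1 symbol, 1814 several and 16010 none listed. Only the first kind was used, and where a gene had several, the one of highest mean stood for it. Values were subtracted between arrays (numpy 2.4.6, pandas 2.3.3), and the counting step was tested on simulated data. Alternatives were quantile normalisation, median centring, cyclic loess (limma 3.58.1), the mean of probe sets, no floor, dim signals raised to the floor, and thresholds of 1.5-fold and 3-fold. The number of arrays limits the precision. Promoter sequences are RefSeq's (GRCm38.p6), held for 4 of the 9 members.

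Members and lists were chosen with earlier results of these data known. Named are all members, up to 4 genes per pathway list with the largest DKO minus WT and any 2-fold apart there, the 8 genes nearest Pparg and up to 3 markers per list. Further genes (Ppard, Rxra, Ppara, Msr1, Gpihbp1, genes 2-fold apart only in a single knockout, the dim defining markers, markers that were lower in DKO, Lpcat1, Esam, Lyz2, Eci1, Hadh and Etfb in Foxo3aKO) were named after their values were seen.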

Additional observations from a re-analysis of the deposited data

Results flagged for a closer look

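Loss of Foxo3a went with opposite differences of Fabp4 on the 2 backgrounds, each larger than the probe set disagreement SD. Foxo3aKO minus WT was -1.06 log2 and DKO minus Fancd2KO was 1.75. The difference between these backgrounds was not tested, since each value rests on 1 pair of arrays. The Foxo3aKO and WT signals, 4.10 and 5.16 log2, were both dim. Once dim signals were set to the floor, the 2 differences were 0.00 and 1.75. No other member showed opposite differences of this size.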

How the results depend on the processing

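Of 378 recomputed member differences, 359 moved by less than the probe set disagreement SD and 19 by more, all 19 with dim signals raised to the floor. None of those at least 2-fold in size changed sign. Counts of members at 2-fold stayed within 1.5 times in 103 of 112 recomputations. With dim signals raised to the floor, Fancd2KO minus WT had 1 member higher, Foxo3aKO minus WT had 0 lower and Fancd2KO minus Foxo3aKO had 1 higher. At a 3-fold threshold these counts were also 1, 0 and 1. At 1.5-fold, DKO minus Fancd2KO and DKO minus Foxo3aKO had 5 members higher each, and 1 lay below the additive expectation. Signs of differences under 0.15 log2 in size turned with normalisation or probe set choice for Pparg, Lipg, Fabp5, Lpl and Cd36 in 1 comparison each. No array could be left out, because each genotype has 1. No paired analysis was possible because no genotype has a second array. The single array per genotype limits every fold given, and dim signals limit those of Pparg, Lipg, Cd36, Nr1h3 and Fabp4, the last against WT and Foxo3aKO.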

Other observations

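Lists of lipid metabolism that hold none of the 9 genes showed few 2-fold differences. Of 22 fatty acid oxidation genes at or above the floor, 19 were lower in Foxo3aKO than in WT, with a median of -0.21 log2 (-0.27 to -0.17 over the normalisations, probe set means and floor), beside -0.04 for all genes. Over all genes, 5366 of 12041 were higher in Foxo3aKO than in WT, so lower values were the more common kind. None of the 22 was 2-fold lower. The largest differences were those of Eci1 (-0.86), Hadh (-0.78) and Etfb (-0.60), which encode mitochondrial enzymes or electron carriers of this pathway. In DKO the median was 0.01, with 12 of 22 higher, and the largest differences were those of Acaa2 (0.46), Cpt2 (-0.46), Hadh (-0.44) and Acads (0.43). Of 21 cholesterol synthesis genes, 1 was 2-fold lower in DKO, the sterol oxidase Msmo1 (-1.02), followed by Dhcr7 (-0.52), Insig1 (0.51) and Mvd (0.40), and the list median was -0.06. Fatty acid synthesis had a median of 0.12 over 11 genes, with Scd1 (-0.30), Fads2 (0.29), Fads1 (0.27) and Acly (0.27) in front. Of 22 genes of lipid droplets and lipolysis, 0 were 2-fold apart in DKO (median 0.04), led by Pnpla3 (0.95, or 0.14 with the floor), Dgat2 (-0.52), Lipa (0.38) and Nceh1 (-0.34). Hilpda was 1.17 higher in Fancd2KO and G0s2, an inhibitor of lipolysis, 1.17 higher in Foxo3aKO.

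Further marker lists gave these values for DKO minus WT. Of 13 stem cell markers, 8 were higher and 5 lower (median 0.12), from Tek (-1.25) to Slamf1 (0.57). Of 12 neutrophil markers, 9 were lower, 3 of them at least 2-fold, and 1 was at least 2-fold higher (median -0.44), from Ly6g (-1.79) to Elane (1.01). All 8 eosinophil markers were lower, 5 at least 2-fold (median -1.93), from Prg3 (-3.53) to Siglecf (-0.58). Of 8 erythroid markers, 5 were lower and 0 were 2-fold apart (median -0.16), from Klf1 (-0.93) to Epor (0.64). Of 10 megakaryocyte and platelet markers, 6 were lower (median -0.29), from Ppbp (-3.39) to Vwf (1.02), the only ones 2-fold apart. Of 9 dendritic cell markers, 5 were lower (median -0.23), from Flt3 (-2.30) to Itgax (2.37), again the only ones 2-fold apart.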
